A study of Mus musculus with 69 samples.

Results

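The cytosolic ribosomal protein genes were followed across single cells of the embryonic mouse forebrain. They were chosen by symbol: Rpl or Rps followed by a number, with an optional letter, plus Rplp0 to Rplp2 and Rpsa, leaving out the Rps6 kinases and pseudogene names. Each gene was read from 1 probe set annotated to that gene alone, taking the brightest on average (mean log2 signal) where a gene had several. This gave 46 of 18194 genes, of which 24 encode proteins of the large (60S) subunit and 22 of the small (40S) subunit. Some ribosomal protein genes outside these 46, such as Rpl5 and Rpl24, had no probe set of their own and are not analysed here. Others, such as Fau and Rps3a1, were measured but fall outside the symbol rule, and are read as non-members.

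The data are Affymetrix array profiles of 69 single cells from the dorso-lateral cerebral wall of CD1 mouse embryos at embryonic day 14. Of these, 3 cells came from the cortical plate (CP), where newborn neurons settle, and 66 from the ventricular and subventricular zones (VZ/SVZ), where progenitors divide. Cells were picked by hand after trypsin digestion. Of 102 cells amplified, 70 were put on arrays after a quality check, per the design text, and 69 are analysed here. The titles also carry a letter, whose meaning is not given in the labels: all 3 CP cells have E, and the VZ/SVZ cells have D (7 cells), A (7), B (14), C (7) or X (31). Zones follow the source label, although for the 3 CP cells another label, the description, gives the VZ/SVZ. No animal or litter is named, so each group counts as 1 sample, the spread given is the SD over cells, and no test between groups was possible.

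Ribosomal proteins assemble with ribosomal RNA into the 2 subunits of the ribosome, at close to equal numbers of most proteins per ribosome. Their mRNAs are among the most abundant of a growing cell. Most of them begin with a run of pyrimidines, the 5′ terminal oligopyrimidine or TOP motif, through which mTOR signalling controls their translation together. In the developing cortex, dividing progenitors make ribosomes for growth, and neurons that leave the cell cycle make fewer of them.

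Signals lie on a linear scale whose highest value over all probe sets and cells was 11783, or 13.52 on the log2 scale. A signal of 50 separated measured from unmeasured values here: lower values were set to 50, which is 5.64 on the log2 scale. Between 3773 and 5806 genes per cell lay above 50, with a median of 3982 in CP cells and 4770.5 in VZ/SVZ cells. Each cell had received bacterial spike RNAs, with lys at 1000 copies, dap at 100, phe at 20 and thr at 5. Their median log2 signals were 12.64, 11.31, 9.43 and 5.64 in that order. The 10-fold step in copies between dap and lys therefore gave a median signal step of 1.34 on the log2 scale, where 10-fold is 3.32. The 5-fold step between phe and dap gave 1.65, where 5-fold is 2.32. Array signal was thus compressed at the top of its range, and 29 of the 46 ribosomal protein genes had a mean log2 signal of 12 or more, as had 37 other genes. Differences given below for such bright genes are on this compressed scale.

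Most ribosomal protein genes were bright in every cell. Signal was above 50 in all 69 cells for 34 of the 46 genes, and in at least 50% of the cells for 37. Rplp0, the base of the ribosomal stalk, had the smallest spread. Its log2 signal was 12.62, 12.30 and 12.67 in the 3 CP cells, against a lowest of 12.42, a median of 12.80 and a highest of 13.09 in VZ/SVZ cells (SD 0.155, n = 66). One CP cell lay below all VZ/SVZ cells and the other 2 lay inside their range. Rps14, a small-subunit protein, had an SD of 0.160 over VZ/SVZ cells, Rpl7a 0.170 and Rps10 0.173. At the other end of the 37 genes stood Rps15 (SD 1.15), Rpl38 (1.04), Rpl37 (1.01) and Rps28 (0.762). Over the bright members the median SD was 0.253, beside 0.306 over the bright non-members and 1.62 over all 4456 non-members above 50 in at least 50% of the cells. The lys spike, added at 1 fixed amount, had an SD of 0.185 over the VZ/SVZ cells.

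**Figure D1:**
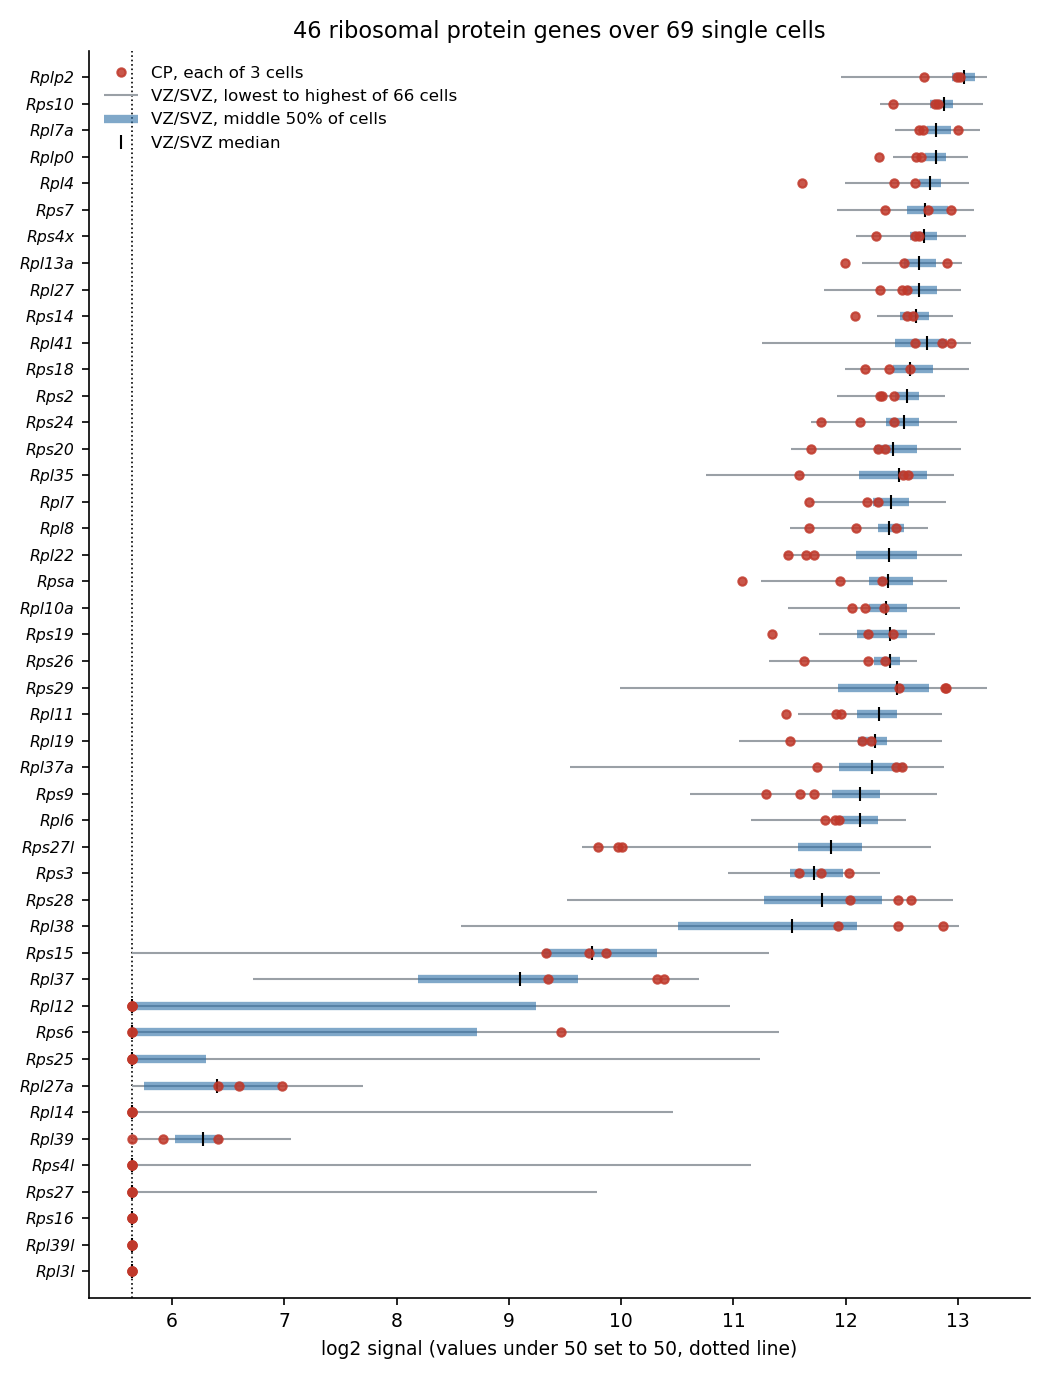
Log2 signal of each of the 46 ribosomal protein genes, ordered by VZ/SVZ mean. Red points are the 3 CP cells, the thin line spans the lowest to the highest of 66 VZ/SVZ cells, the thick bar holds their middle 50% and the tick is their median. In the CP cells Rps27l lies at the low end of its VZ/SVZ range and Rpl37, Rpl38, Rps28 and Rps29 lie above their VZ/SVZ medians.

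A smaller set read low, and these readings belong to the probe set used. Rps16, Rpl3l (the muscle form of Rpl3) and Rpl39l (the testis form of Rpl39) were above 50 in 0 of 69 cells. Rps27 was above 50 in 5 cells, Rps4l in 8, Rpl14 in 14, Rps25 in 17, Rpl12 in 30 and Rps6, the target of the S6 kinases, in 33. Rpl27a and Rpl39 were above 50 in 57 and 58 cells but averaged only 6.45 and 6.21. For Rps16, Rps27, Rpl14, Rps25, Rpl12, Rps6, Rpl27a and Rpl39, at least 1 probe set annotated to the gene together with other genes was above 50 in all 69 cells. The brightest of these averaged 12.87 for Rps16, 11.33 for Rps27 and 12.76 for Rps6. Low signal from the single-gene probe set is thus no sign that these transcripts were missing.

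In CP cells, most ribosomal protein genes read slightly below VZ/SVZ cells on the deposited scale. Most genes above 50 in at least 50% of the cells also read below. Quantile normalization and centring turned the sign of the ribosomal protein median, and a few ribosomal protein genes differed by more on either side. Over the 46 genes the median difference, CP minus VZ/SVZ, was -0.19 on the log2 scale. By a size of at least 1.5-fold (0.58 on the log2 scale), 3 of 46 were higher in CP and 5 of 46 were lower. Over all 18194 genes, most of them under 50 in most cells, 9.2% were higher and 20.7% lower by that rule. Among the 4493 genes above 50 in at least 50% of the cells, 13.2% were higher and 54.8% were lower, with a median of -0.74, and of the 37 members among them 3 were higher and 2 lower. Of these 37, 28 had a difference below 0 and 9 above it, and 15 lay within 0.2 on the log2 scale. Below 0 were also 3276 of the 4493 genes, and 33 of the 37 bright non-members. All 3 CP cells lay below the VZ/SVZ median for 21 of the 37 members and above it for 5, which was not counted over other genes. Of the 29 bright members 1 was lower, and of the 37 bright non-members 17 (45.9%) were lower, with a median of -0.39. The slight shift of the ribosomal protein genes has no settled sign: it was 0.03 after quantile normalization, -0.06 after scaling each cell to its lys and dap spikes, and 0.59 after centring on genes detected in at least 90% of cells. That last step removes a difference of -0.85, the median of those genes. The large- and small-subunit genes had medians of -0.19 and -0.21. Rpl10a, Rpl11, Rps19 and Rps7 differed by -0.15, -0.49, -0.35 and -0.03, and all 4 turned positive after centring (0.70, 0.37, 0.50 and 0.82).

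**Figure D2:**
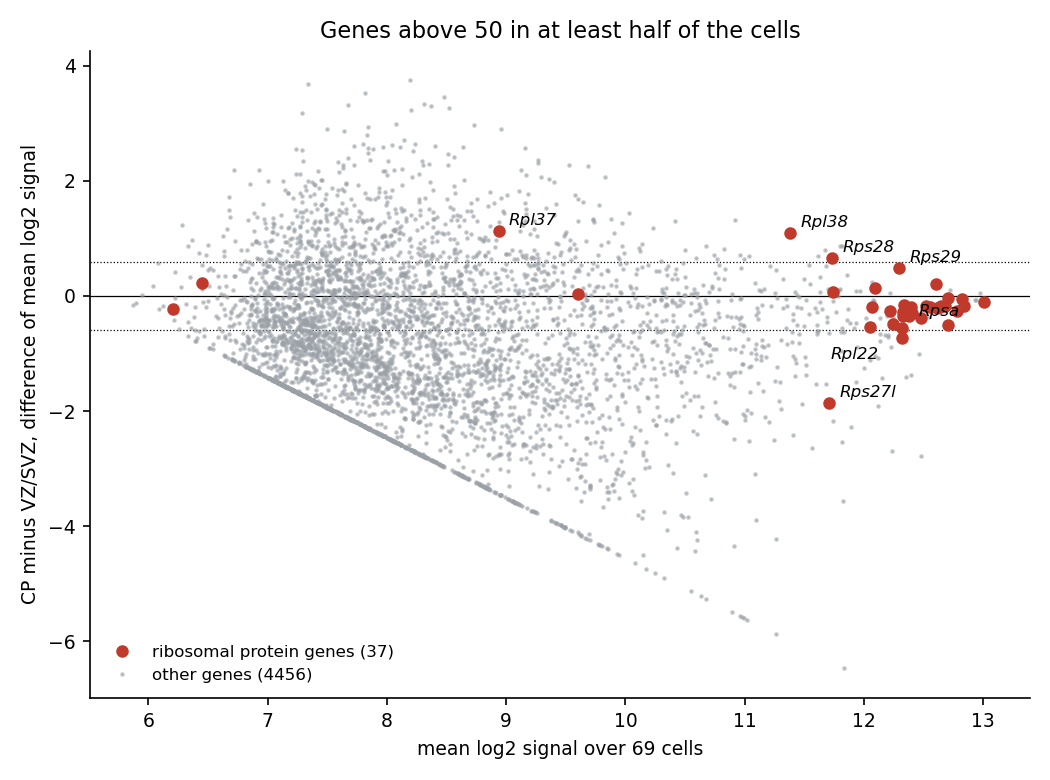
Difference of mean log2 signal, CP (3 cells) minus VZ/SVZ (66 cells), against mean log2 signal over all 69 cells. Red points are the 37 ribosomal protein genes above 50 in at least 50% of the cells, grey points are the other 4456 genes and dotted lines mark 1.5-fold. The diagonal edge at the lower left holds genes with no CP cell above 50.

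Rps27l was the lowest in CP relative to VZ/SVZ. It encodes a close relative of Rps27 and is induced by p53. Its log2 signal was 9.97, 9.79 and 10.004 in CP cells, against a lowest of 9.65, a median of 11.87 and a highest of 12.76 in VZ/SVZ cells. All 3 CP cells lay below 65 of the 66 VZ/SVZ cells, and the exception was a cell with letter D. The difference of means was -1.86, or 3.64-fold lower in CP (SD 0.115 over 3 CP cells and 0.568 over 66 VZ/SVZ cells). The other 2 probe sets annotated to Rps27l alone gave -1.61 and -1.69. The difference was -1.28 after quantile normalization, -1.73 after spike scaling and -1.01 after centring, and between -1.91 and -1.80 when any 1 CP cell was left out. Against only the 16 VZ/SVZ cells with Tubb3 and without Sox2 above 50, it was -1.59. Rps27 and Rps27l have similar sequences, and whether the probes tell them apart could not be checked from the files.

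Rpl22, a large-subunit protein with a paralog Rpl22l1, read 11.71, 11.48 and 11.64 in CP cells, against 11.45, 12.39 and 13.03 as the lowest, median and highest of VZ/SVZ cells. Only 5 of the 66 VZ/SVZ cells lay at or below the highest CP cell, and the difference was -0.73. A second Rpl22 probe set gave -1.004, but the third gave 2.32, and centring turned the sign of the first to 0.12. Rpsa, a small-subunit protein also known as a laminin receptor, had a difference of -0.56, just short of 1.5-fold, and is not counted as lower. It read 12.32, 11.08 and 11.95 in CP cells, against 11.24, 12.38 and 12.90 as the lowest, median and highest of VZ/SVZ cells. One CP cell set most of that size: without CP cell 2 the Rpsa difference was -0.21, and centring turned it to 0.29. The other members counted as lower, Rpl12, Rps25 and Rpl14, were above 50 in 0 of 3 CP cells, against 30, 17 and 14 of 66 VZ/SVZ cells.

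On the higher side stood Rpl37, Rpl38 and Rps28. Rpl38, a large-subunit protein that mouse embryos need to translate a set of Hox mRNAs, read 12.87, 11.93 and 12.47 in CP cells, against 8.57, 11.52 and 13.01 as the lowest, median and highest of VZ/SVZ cells. All 3 CP cells lay above the VZ/SVZ median, inside the VZ/SVZ range. The difference was 1.09 (SD 0.471 in CP and 1.04 in VZ/SVZ). Rpl37, a zinc-binding large-subunit protein, read 10.38, 9.34 and 10.32 in CP cells, against 6.72, 9.10 and 10.69 in VZ/SVZ cells, a difference of 1.13. Rps28, a small-subunit protein, differed by 0.65, and its other 2 single-gene probe sets gave 0.95 and 0.99. Rps29 followed with 0.48, and its other probe sets gave 0.80 and 0.88. The 4 genes were higher in CP under all 4 other scalings or floors tried. Rpl37 and Rpl38 each had only 1 single-gene probe set, with a cross-hybridization suffix, so no second one could be compared. That of Rpl37 averaged 8.94 over all cells, while the brightest probe set it shares with other genes averaged 12.21. Between settings Rpl37 differed by 1.13 to 1.98 and Rpl38 by 1.09 to 1.94. Without CP cell 2, which was lowest of the 3 for all 4 genes, the differences of Rpl37 and Rpl38 were 1.46 and 1.34.

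**Figure D3:**
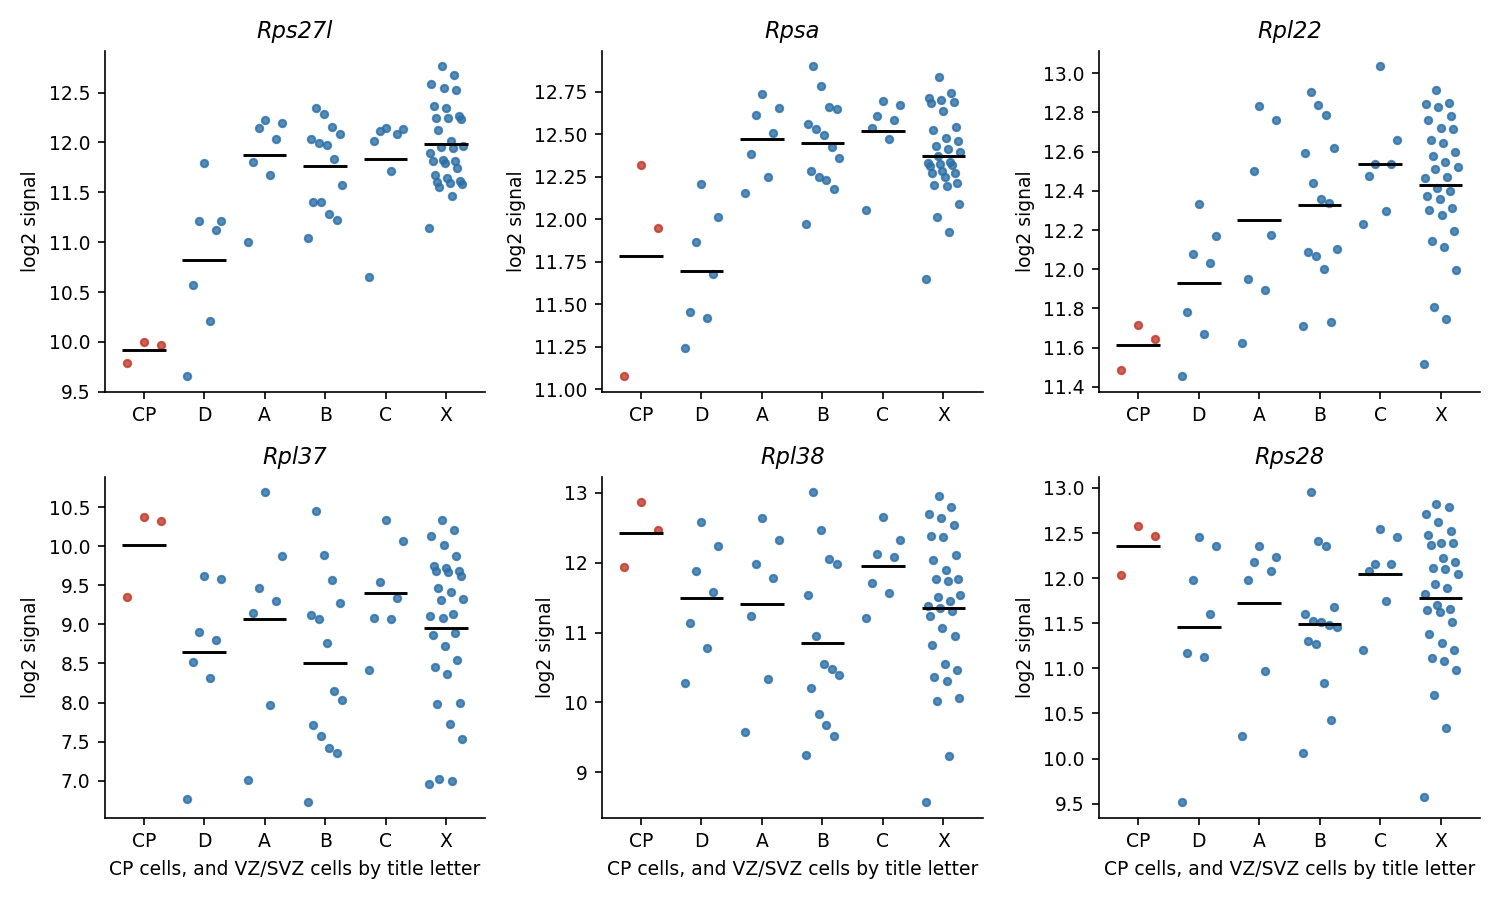
Log2 signal of Rps27l, Rpsa, Rpl22, Rpl37, Rpl38 and Rps28 in each cell, with CP cells in red and VZ/SVZ cells in blue by title letter. Horizontal bars are means, and each panel has its own axis, which does not start at 0. The upper 3 genes have their lowest means in CP and in letter D, and the lower 3 have their highest mean in CP.

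The genes that were high in CP belong to a set that varied together within the VZ/SVZ. Rpl37, Rpl37a, Rpl38, Rpl41, Rps28 and Rps29 were set apart after their values were seen, so their likeness is a description with no test. All 6 encode short proteins, as do Rpl39 and Rps27l, whose correlations with the 6 genes were lower, at 0.34 to 0.47 and 0.16 to 0.42. Over 66 VZ/SVZ cells, which share the array type and the amplification, Pearson's r between any pair of the 6 lay between 0.77 and 0.89, with a median of 0.84. In the 31 cells of letter X alone the median was 0.86. Their median r with the other 28 members above 50 in every cell was 0.26, and that among these 28 was 0.45. The set has no sharp edge: r to the 6 genes was 0.61 to 0.79 for Rps26 and 0.52 to 0.64 for Rpl35. It was 0.49 to 0.71 for Rplp2 and 0.43 to 0.62 for Rpl22. The median deviation of the 6 genes was 0.72, 0.24 and 0.66 in CP cells, against a lowest of -2.15, a median of 0.15 and a highest of 1.01 in VZ/SVZ cells. Their level followed the spikes weakly, with r = 0.18 to lys and dap over 69 cells.

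**Figure D4:**
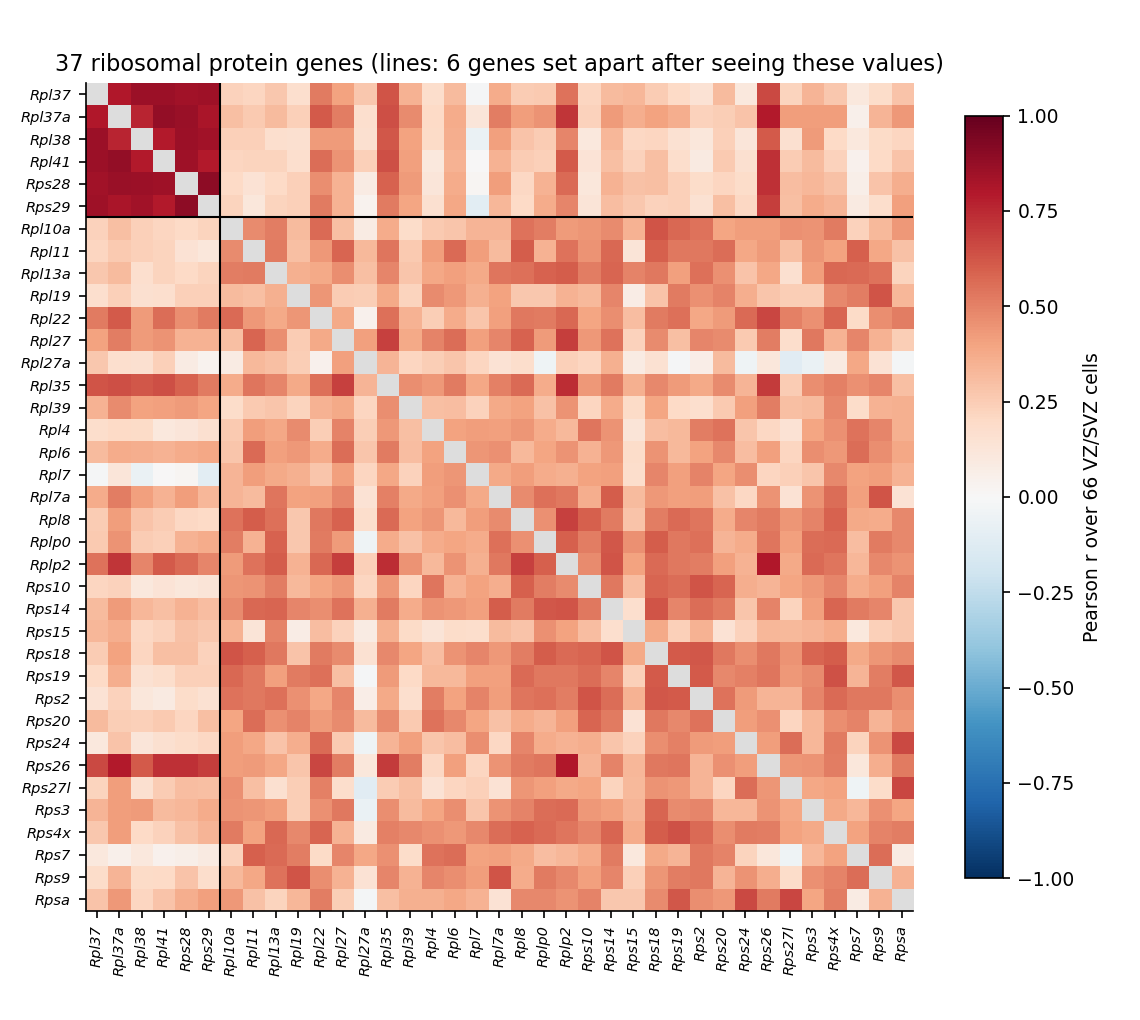
Pearson's r between 37 ribosomal protein genes over 66 VZ/SVZ cells, on a scale from -1 (blue) to 1 (red). The first 6 genes, set apart by lines, correlate with each other at 0.77 to 0.89. The remaining genes are in alphabetical order.

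The annotated starts of these genes are shown because the TOP motif is the element that ribosomal protein mRNAs are known to share. RefSeq promoter windows on GRCm38.p6 were found for 40 of the 46 genes. Each line gives 15 bases before and 15 from the most upstream annotated start, 5′ to 3′ on the gene's strand. Capitals mark the longest run of at least 5 pyrimidines that begins with C.
Rps27l, chr9:66946071-66946100, + strand: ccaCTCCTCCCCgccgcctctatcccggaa
Rpl22, chr4:152324421-152324450, + strand: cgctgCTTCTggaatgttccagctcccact
Rpsa, chr9:120127751-120127780, + strand: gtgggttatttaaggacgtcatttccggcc
Rpl37, chr15:5116598-5116627, + strand: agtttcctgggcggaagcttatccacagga
Rpl37a, chr1:72711245-72711274, + strand: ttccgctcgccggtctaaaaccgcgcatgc
Rpl38, chr11:114668565-114668594, + strand: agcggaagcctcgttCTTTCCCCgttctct
Rpl41, chr10:128549154-128549183, - strand: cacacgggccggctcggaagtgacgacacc
Rps28, chr17:33824548-33824577, - strand: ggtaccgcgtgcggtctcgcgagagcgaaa
Rpl7a, chr2:26910792-26910821, + strand: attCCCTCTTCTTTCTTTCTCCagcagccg

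Among the steadiest genes, Rpl7a carries a run of 19 pyrimidines and Rps10 a run of 13, but Rplp0, with the smallest spread, has none. Among the most variable, Rpl38 has a run of 8 at its start, and Rpl37, Rps28 and Rps15 have none. Of the 5 genes shown from the co-varying set, only Rpl38 has a run in this window. Such a run lay near an annotated start of 28 of 40 members (70%), beside 42.4% of the 14453 array genes in the table. Over the whole 300 bases, 250 before and 50 after the start, on either strand, the ETS core CCGGAAG was found in 20 of 40 members (50%) and in 15% of array genes. The pyrimidine stretch CTTTTCC was found in 17.5% of members and 9.38% of array genes, and the YY1 core AAGATGGC in 7.5% and 4.07%. CTTTTCC can overlap the pyrimidine run. These are letter matches, and annotated starts can lie some bases from the true ones.

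Within the VZ/SVZ, progenitor and neuron markers split the cells with little median difference in signal, in ribosomal protein genes and in other bright genes alike. Sox2, a transcription factor of neural progenitors, was above 50 in 49 of 66 cells. The median over the 46 genes, Sox2 above 50 minus not, was 0.00. One member was higher, Rpl12 (1.16), and 0 were lower, beside 31% higher and 14.7% lower of the 4493 genes, 11.5% and 7.35% of all genes, and 5.41% and 0% of the bright non-members. Rpl12 was above 50 in 26 of 49 cells with Sox2, against 4 of 17 without. Rpsa followed with 0.36 and Rps27l with 0.33, while Rpl14 had -0.40 and Rpl38 -0.37. In letter X cells alone the sign of Rps27l turned (-0.09), Rpl38 had -0.06 and Rpsa 0.23, while Rpl12 had 2.07. Of the 37 often measured members, 30 lay within 0.2 on the log2 scale. The bright non-members had a median of 0.03, and how many of them lay within 0.2 was not counted, here or for the markers below.

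Eomes, a factor of intermediate progenitors, was above 50 in 28 of 66 VZ/SVZ cells, and the median difference was 0.07. One member was higher (Rpl14, 0.68) and 2 were lower (Rps25, -0.84, and Rpl12, -0.65), beside 14% and 11% of the 4493 genes, 4.64% and 4.88% of all genes, and 2.7% and 0% of the bright non-members. All 3 are genes above 50 in under 50% of the cells. Rps15 had 0.36, Rpl35 0.25 and Rpl39 0.22. Of the 37 often measured members 33 lay within 0.2, and the median over the bright non-members was 0.06.

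Tubb3, a tubulin of neurons, was above 50 in 35 of 66 VZ/SVZ cells, and the median difference was 0.02. Rpl38 was higher by 0.73 and Rpl12 lower by a difference of -0.86, beside 12.5% higher and 18.1% lower of the 4493 genes and 5.47% and 6.83% of all genes. Of the bright non-members 0% were higher and 0% lower. Rpl38 had a lowest of 9.24, a median of 11.90 and a highest of 13.01 in cells with Tubb3, against 8.57, 10.95 and 12.96 in cells without. The ranges overlap almost wholly. Rpl37 (0.44), Rps28 (0.29) and Rps29 (0.27) had smaller positive differences, as had Rpl35 (0.28). In letter X cells alone Rpl38 gave 0.73 and Rpl37 0.54. Rps27l had -0.23, and Rpl22 had -0.01. Of the 37 often measured members 28 lay within 0.2, and the median over the bright non-members was 0.04.

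In letter D the median over the 46 genes, against the other VZ/SVZ cells, was -0.18, and 3 genes were lower: Rps15 (-1.29), Rps27l (-1.08) and Rpsa (-0.72). None was higher. Of the 4493 genes 15% were higher and 43% lower, and of all genes 7.99% and 16.2%. Of the bright non-members 13.5% were lower. Rps15 varied widely over the D cells (SD 2.05), with a lowest of 5.64, at the floor, a median of 9.11 and a highest of 10.54. Rps27l had a lowest of 9.65, a median of 11.12 and a highest of 11.79 in the 7 D cells. Its lowest value was 11.14 in the 31 X cells, 11.01 in A, 11.05 in B and 10.65 in C, so the ranges overlap. Rpsa had 11.24, 11.68 and 12.21 in D, and a lowest of 11.65 in X. The D differences of Rps27l and Rpsa kept their sign under the 4 other scalings or floors, at -1.20 to -0.66 and -0.84 to -0.31, and that of the 46-gene median did not (0.19 after centring). In D cells Rpl38 differed by 0.19, and Rpl37 by -0.27, which turned to 0.12 after quantile normalization and 0.14 after centring. For Rpl37, 1 D cell read 6.77, against 8.32 to 9.62 in the others.

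The remaining letters showed smaller shifts. In C the median was 0.09, with Rpl14 (0.81) and Rpl38 (0.70) higher and 2 genes lower, beside 19.5% higher and 20.5% lower of the 4493 genes and 7.69% and 8.6% of all genes. The lower 2 were Rpl12 and Rps25, above 50 in 0 of 7 C cells, against 30 and 17 of the 59 other VZ/SVZ cells. In A it was 0.02, with Rps25 higher (1.35) and 1 gene lower, beside 22.8% and 19.4% of the 4493 genes and 10.1% and 7.73% of all genes. The lower gene was Rpl14, above 50 in 0 of 7 A cells, against 14 of the 59 others. In B it was -0.01, with Rpl38 lower (-0.61), beside 11.8% higher and 12.6% lower of the 4493 genes and 4.42% and 5.13% of all genes. In X it was 0.04, with Rps15 higher (0.68), beside 18.7% higher and 5.43% lower of the 4493 genes and 6.81% and 2.24% of all genes.

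The marker lists moved with these groupings, and their part in the results was not tested. Sox2 and Eomes were above 50 in 0 of 3 CP cells and 0 of 7 D cells, and Tubb3 and Stmn2 in all of both. The log2 summed signal of 6 neuron markers was 13.31 to 13.96 in CP and 13.16 to 13.88 in D, against 2.91 to 14.11 over all VZ/SVZ cells. The 3 dividing cell markers measured were above 50 in none of the CP or D cells, and in 56 of the 66 VZ/SVZ cells at least 1 was. The 6 apical progenitor markers summed to 4.62 to 9.74 in CP and 3.55 to 9.19 in D, against 3.55 to 14.49 in all VZ/SVZ cells. The 5 intermediate progenitor markers summed to 5.63 to 7.43 in CP and 9.30 to 11.45 in D, against 6.15 to 13.92 in all VZ/SVZ cells. Letter C cells were all above 50 for Eomes and letter A cells all for Sox2. Markers of endothelium, microglia and red blood cells, 3 each, were above 50 in no cell, those of interneurons in 1, Cajal-Retzius cells in 4, oligodendrocyte precursors in 1 and meninges or pericytes in 7, all from the VZ/SVZ.

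A ribosomal protein level was taken for each cell as the median, over the 46 genes, of log2 signal minus the gene's mean over 69 cells. It was -0.12, -0.42 and -0.02 in the CP cells, against a lowest of -0.38, a median of 0.02 and a highest of 0.35 in VZ/SVZ cells (SD 0.157). One CP cell lay below all VZ/SVZ cells, and the others lay inside their range. As a share of the array's summed signal, the 46 genes took 3.02%, 3.17% and 3.70% in CP cells, against 2.11%, 2.59% and 3.39% as the lowest, median and highest in VZ/SVZ cells. By this measure the CP cells lay at the upper end. The 2 measures thus place the CP cells on opposite sides of the VZ/SVZ median.

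**Figure D5:**
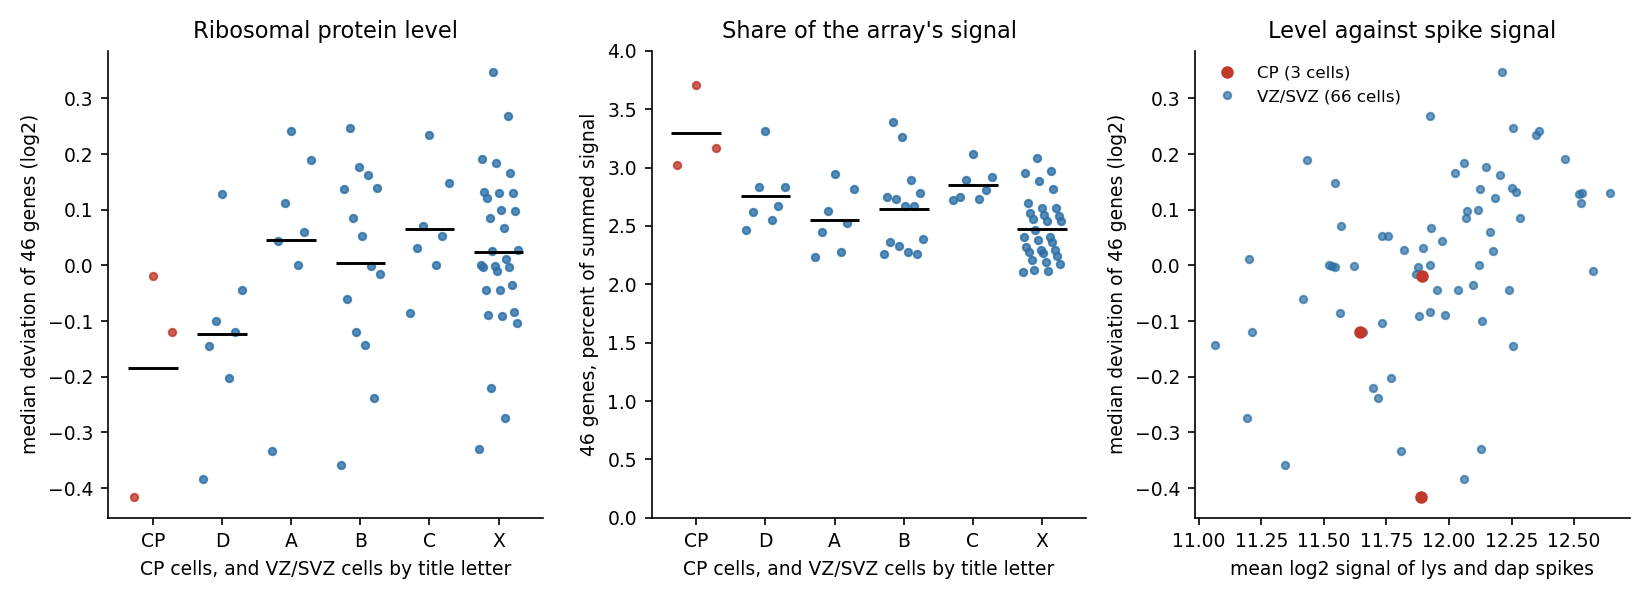
Left: ribosomal protein level per cell, the median deviation of 46 genes on the log2 scale, in CP cells (red) and VZ/SVZ cells (blue) by title letter, with means as bars. Middle: signal of the 46 genes as a percent of all signal on the array. Right: the level against the mean log2 signal of the lys and dap spikes, over 69 cells.

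The level followed the spikes. Across the 69 cells, which share array type and spike mix, Pearson's r of the level with lys was 0.44, with dap 0.38, with phe 0.24 and with thr 0.09. With lys and dap together it was 0.43, and 0.43 again in the 31 letter X cells alone. The share of summed signal had the opposite sign, r = -0.31. Lys read 12.27 to 12.50 in CP cells and 12.25 to 13.09 in VZ/SVZ cells. After the deviation of lys and dap was taken off, the level averaged -0.06 ± 0.279 in CP cells and 0.01 ± 0.324 in VZ/SVZ cells (SD, n = 3 and 66). This step widened the SD of the level over VZ/SVZ cells from 0.157 to 0.324. By letter, the mean level after it was -0.24 in D, -0.05 in A, 0.15 in B, 0.26 in C and -0.05 in X. Before it, the mean level was -0.12 in D, 0.04 in A, 0.00 in B, 0.06 in C and 0.02 in X. The letters also differed in mean lys and dap signal, at 12.05 in D, 12.03 in A, 11.79 in B, 11.74 in C and 12.01 in X.

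The non-members whose signal most resembled the level over the 66 VZ/SVZ cells were Fau (r = 0.67), Rps3a1 (0.65), Eef1b2 (0.64), Serf2 (0.64), Sem1 (0.64), Elob (0.64), Cox6c (0.60) and Cdk2ap1 (0.59). Fau encodes the small-subunit protein S30 joined to a ubiquitin-like protein, Rps3a1 is a small-subunit protein outside the symbol rule, and Eef1b2 is an elongation factor subunit. The median over all often measured non-members was 0.12. At the low end stood Camk2g (-0.35), Atp13a2 (-0.34), Nsdhl (-0.33) and Rap1gds1 (-0.32). Members correlated with each other at a median of 0.44 among the bright ones, beside 0.24 among bright non-members and 0.03 among all often measured non-members. Rplp2, Rpl35, Rps4x and Rps18 had the highest median r with the other members, 0.45 to 0.48, and Rpl14, Rps27, Rps4l and Rps6, seldom above 50, the lowest, between -0.01 and 0.01.

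Other genes of ribosome production and translation were compared from lists, whose counts stand beside 13.2% higher and 54.8% lower in CP over all 4493 often measured genes. Of 16 elongation and other TOP genes measured, 1 was higher and 4 lower in CP, with a median of -0.13, which turned to 0.08 after quantile normalization, 0.01 after spike scaling and 0.73 after centring. Eef2, the translocation factor, was higher (11.60 in CP and 10.79 in VZ/SVZ, difference 0.81). Npm1, a nucleolar chaperone (9.12 and 11.11, difference -1.99), and Naca, which binds nascent chains (10.29 and 12.20, difference -1.92), were lower. Of 21 ribosome biogenesis genes, 3 were higher and 16 lower, with a median of -1.01. Ltv1, an assembly factor of the small subunit, was above 50 in 0 of 3 CP cells, against 44 of 66 VZ/SVZ cells, and Ebna1bp2, which works in rRNA processing, had a difference of -2.05. Ncl, encoding nucleolin, was higher by 1.59 and Nob1, which cleaves 18S rRNA precursor, by 0.95. These signs held under the 4 other scalings or floors for each gene named here.

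Of 62 mitochondrial ribosomal protein genes, 4 were higher and 33 lower in CP, with a median of -0.69, which is near the 54.8% lower and the median of -0.74 over the 4493 genes. Mrps14 (6.81 in CP and 10.65 in VZ/SVZ) had the most negative difference, and Mrps24 (9.81 in CP and 8.78 in VZ/SVZ) the most positive. Of 7 mTOR pathway genes, 1 was higher and 2 lower, with a median of -0.36 that turned to 0.04 after quantile normalization and 0.17 after centring. The mTOR inhibitor subunit Akt1s1 had a difference of 1.21. The cap-binding protein Eif4e and the mTOR activator Rheb had -0.79 and -0.67, both of which turned positive after centring (0.06 and 0.17).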

How the data were processed

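The authors' deposited table gives 1 linear intensity per Affymetrix probe set and cell, and the submitters' processing notes name MAS5. Its version and scaling are not known here. Per cell, the mean without the lowest and highest 2% of values lay between 50.1 and 142. Of 45101 probe sets, 34958 had 1 gene in the platform annotation, 932 several and 9211 none. All 69 value columns were used, and no pair of cells correlated above 0.739.

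Deposited values under 50 were set to 50 and log2 was taken. Groups were compared by the difference of mean log2 signal, and members counted at 1.5-fold in either direction, beside the same over genes above 50 in at least 50% of the cells. Spikes were averaged over their 3′ probe sets. No test was run, because cells are not replicates. The level and differences were tested on simulated data with planted shifts. Python 3.11.15, numpy 2.4.6, pandas 2.3.3 and scipy 1.17.1 were used.

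Genes named are members with the 4 largest differences in either direction, the 4 highest and lowest SD and correlations, those above 50 in under 50% of the cells, 10 listed by symbol, the 12 non-members most and least like the level, and 2 at either end of each other list. Members and lists were chosen with earlier results of these data known. Alternatives are described in the closing section. The number of arrays limits the precision.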

Additional observations from a re-analysis of the deposited data

Results flagged for a closer look

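In groups of 7 cells, 39 gene or level values by letter were examined for 1 cell far from the rest, and 5 stood out. Chance alone gives about 1 in 20 for independent values. These values are not independent: over VZ/SVZ cells r was 0.67 between Rps27l and Rpsa and 0.88 between Rpl41 and Rpl37a. The ribosomal protein level of 1 letter A cell was -0.33, against 0.00 to 0.24 in the other A cells. In letter C, 1 cell had Rps27l at 10.7, against 11.7 to 12.1 in the others, and the same cell had Rpsa at 12.1, against 12.5 to 12.7. In letter D, 1 cell had Rpl41 at 11.3, against 12.5 to 13.02, and the same cell had Rpl37a at 9.54, against 11.5 to 12.6. The ribosomal protein level of that D cell, -0.38, was the lowest of the VZ/SVZ cells. Values are on the log2 scale, except that the level is a log2 deviation.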

How the results depend on the processing

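The median CP difference of -0.19 became 0.027 after quantile normalization and 0.59 after centring on often detected genes, and ranged from -0.30 to -0.06 when 1 CP cell was left out. The count of 8 members past 1.5-fold in CP became 26 after centring, 3 with only probe sets without a cross-hybridization suffix, 5 with only members above 50 in at least 50% of the cells, and 4 at 2-fold. It was 9 to 11 with 1 CP cell left out. The Sox2 count of 1 became 3 with the floor at the TrpnX control percentile (6.26), 2 after quantile normalization, 3 with near-name genes added, 0 with only often measured members, 2 in letter X alone and 2 with Sox2 above 200. The Eomes count of 3 became 0 with only often measured members and 0 at 2-fold. The Tubb3 count of 2 became 1 without suffixed probe sets, 1 with only often measured members and 0 at 2-fold. Spike scaling moved the medians of letters B and C to 0.18 and 0.31. Centring moved those of D and X to 0.19 and -0.14. The correlation of the level with lys and dap (0.43) reversed to -0.31 for the percent of summed signal. The restriction to often measured members was chosen after seeing the data. The cause of these shifts was not tested, apart from the smaller number of genes where genes are left out. No paired analysis was possible because replicate numbers here only name cells. Signal compression limits differences among the brightest genes, and values at the floor have no order.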

Other observations

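Genes with ribosomal protein-like names outside the symbol rule were also read. Rpl22l1, the paralog of Rpl22, averaged 9.84 in CP cells and 11.04 in VZ/SVZ cells, a difference of -1.19, and it kept that sign under the 4 other scalings or floors. In VZ/SVZ cells it averaged 11.23 with Sox2 above 50 and 10.48 without. Rpl7l1 was above 50 in 0 of 3 CP cells, against 44 of 66 VZ/SVZ cells. Rps3a1 averaged 12.86 in CP cells and 12.93 in VZ/SVZ cells, and Fau 11.89 and 11.79.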
